A study of Mus musculus with 18 samples.

Results

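The matricellular glycoproteins and small proteoglycans described here are 10 genes taken by name, Fn1, Postn, Sparc, Thbs1, Thbs2, Tnc, Tgfbi, Vcan, Dcn and Bgn, with every probe set annotated to 1 of them alone. They hold 30 of the 45101 probe sets on the array, and 1 more, annotated to Thbs1 together with Pald1, was left out. Of the 30, 23 reached a log2 level of 5 on at least 2 of the 18 arrays, as did 18958 probe sets in all. The 7 dimmer ones belong to Vcan (5 of 8), Dcn (1 of 2) and Sparc (1 of 3), so all 10 genes were measured.

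Matricellular proteins are secreted into the space between cells and bind collagen fibres, integrins and growth factors without being a main building block of the fibres. Thrombospondins, tenascin C, SPARC and periostin belong to this class, and TGFBI is a related integrin-binding protein named for its induction by TGFb in a human tumour cell line. Fibronectin is the adhesive fibre that many of them attach to, versican is a large proteoglycan that binds hyaluronan, and decorin and biglycan are small proteoglycans whose protein core binds collagen and TGFb.

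RNA came from mouse embryonic fibroblasts, the mixed adherent cells that grow out of minced embryos of days 12.5 to 14.5 after head, liver and blood clots are removed, kept in medium with 10% serum. Cells homozygous for the mutant, heterozygous for it or wt were given 5 ng/mL TGFb1 for 4 h or 24 h or left untreated, with 2 arrays for each of the 9 groups. The submitters call the mutant constitutively active; the title gives TGFBR1 as the mutated gene and the design text gives TGFb1, so only the word mutant is used below. The labels do not state whether both arrays of a group hold RNA of different cultures. In each homozygous and wt group the arrays differ in Xist and in the Y-linked gene Eif2s3y, so they hold RNA of different cells. In heterozygous groups the arrays do not differ in this way. Dcn differed between the heterozygous arrays by 0.99 untreated, 0.89 at 4 h and 1.12 at 24 h, in the same array order. Tgfbi differed in that order by 0.91, 0.84 and 0.80. Over pairs of conditions, array differences in heterozygous cells correlated at 0.234 to 0.435. Whether the spread in heterozygous groups is technical was not tested. In bulk samples such as these, fewer cells of a type and less RNA per cell cannot be told apart.

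On the arrays, 39.55 to 40.4% of probe sets lay at or above log2 5, and the number of arrays limits the precision. All 8 fibroblast markers were measured, with a summed log2 level of 17.24 to 17.74. Of the endothelial markers 5 of 6, and of the cartilage markers 4 of 6, were dim on every array. The others were not: Emcn stood at 8.24 to 9.67, Col2a1 at 9.72 to 11.73 and Sox9 at 5.78 to 7.91. The summed level was 9.96 to 11.78 for cartilage and 8.67 to 11.01 for skeletal muscle markers. It was 9.15 to 11.8 for epithelial and 16.23 to 16.63 for smooth muscle markers. Of the epithelial markers 2 of 5, and of the skeletal muscle markers 2 of 7, were dim on every array. Most of the epithelial sum was Krt18, at 8.92 to 11.76, while Epcam stood at 5.27 to 5.65 and Krt8 at 3.69 to 5.68. The 12 macrophage and blood markers were present on all arrays, at a summed log2 level of 12.82 to 13.65 in homozygous, 13.37 to 14.19 in heterozygous and 10.03 to 12.63 in wt cells, so they differ with genotype. Xist, which is transcribed from the inactive X chromosome of female cells, was high on all heterozygous arrays, on the homozygous arrays numbered 1 and on 3 of 6 wt arrays. In wt cells the high arrays were untreated 1, 4 h 2 and 24 h 2, so the array numbers of the labels do not follow 1 Xist class there. Of 7 measured TGFb target genes, 4 rose in homozygous, 3 in heterozygous and 5 in wt cells at 4 h; Il11, a cytokine gene, rose by 4.86 ± 0.28, 4.56 ± 0.28 and 4.19 ± 0.28 on the log2 scale (limma SE, 2 arrays a group).

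Within the 10 genes TGFb gave 3 kinds of course, shown in the plot of log2 level by group. Thbs2 and Vcan stood lower at 4 h than in untreated cells and higher at 24 h, and Tnc stood higher at 24 h. Tgfbi stood at its untreated level at 4 h and fell at 24 h. Fn1, Sparc, Thbs1 and Bgn were among the brightest signals on the arrays and moved by less than 0.4 on the log2 scale on their brightest probe sets, while Postn and Dcn were not called, with an SE shared with wt or heterozygous arrays that lie far apart. Levels are log2 of the deposited intensity on the brightest probe set of a gene; they can be set against other groups on the same probe set but not against other genes.

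**Figure D1:**
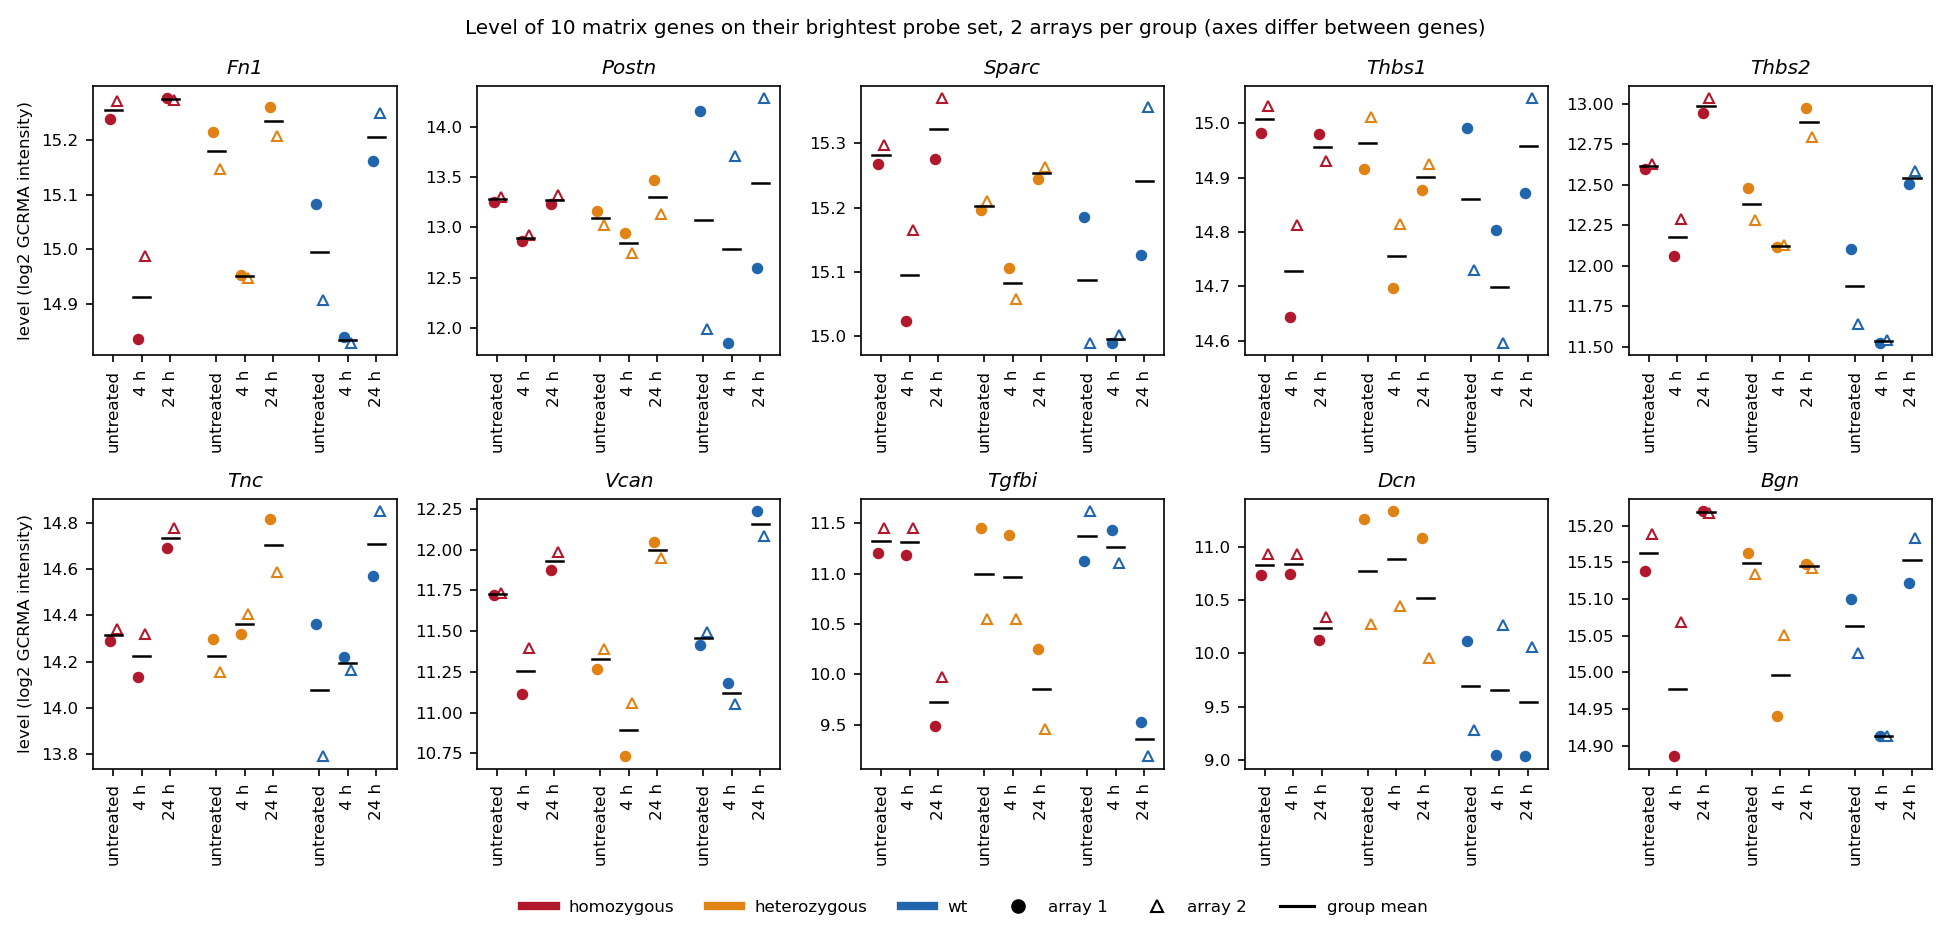
Log2 intensity of the 10 genes on their brightest probe sets (vertical axes, differing between genes) in homozygous, heterozygous and wt cells, untreated and after 4 h and 24 h of TGFb; circles are arrays numbered 1, triangles arrays numbered 2 and bars the means of 2 arrays. All 6 Tgfbi values at 24 h, 9.18 to 10.25, lie below the 6 at 4 h, 10.54 to 11.45, and the 2 wt arrays of a group lie far apart for Postn and Dcn.

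Counted as genes past an adjusted p of 0.05 in limma, fewer members were called against untreated cells than between the times. At 4 h against untreated, 5 of 10 genes were lower and 0 higher in homozygous cells, where 17.6% of all probe sets were lower and 17.4% higher. In heterozygous cells 2 of 10 were lower and 0 higher at 4 h, against 12.7% and 13.8% of all probe sets. No member was called at 4 h in wt cells, where 9.48% of all probe sets were lower and 7.64% higher, and 4 members had an unadjusted p under 0.05, as did 33.3% of all probe sets. The median change of the 10 genes at 4 h was -0.23 in homozygous, -0.18 in heterozygous and -0.16 in wt cells, and that of all probe sets lay between -0.04 and 0.00. Fibroblast markers moved at that time too: 5 of 8 fell in homozygous, 3 in heterozygous and 2 in wt cells, with a median change of -0.38, -0.27 and -0.14, and their part in the members' change was not tested.

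At 24 h against untreated, 0 of 10 genes were higher and 1 lower in homozygous cells (2.25% and 4.18% of all probe sets), 2 higher and 0 lower in heterozygous cells (2.24% and 2.84%), and 3 higher and 1 lower in wt cells (4.11% and 5.03%). Between 24 h and 4 h, 6 genes were higher and 1 lower in homozygous cells, where 14.4% of all probe sets were higher and 18.9% lower. The same contrast gave 3 higher and 1 lower in heterozygous cells (14.1% and 15.0%) and 6 higher and 1 lower in wt cells (16.7% and 15.7%). The median change of the 10 genes from 4 h to 24 h was 0.30, 0.23 and 0.32 in homozygous, heterozygous and wt cells, that of all probe sets -0.03, -0.01 and 0.01. These 3 contrasts of a genotype share arrays, so their counts are not independent of each other. The groups compared were also fitted alone, where the spread is not shared with other genotypes. None of the wt calls at 24 h or between the times then remained (limma, adjusted p = 0.0744 to 0.33). Fewer arrays enter such a fit, and the arrays of a group lay further apart in wt than in mutant cells. The root mean square SD over all probe sets was 0.335 to 0.411 in wt and 0.195 to 0.276 in mutant groups. The part of each in these lost calls was not tested. That fit called 4 of 10 genes in homozygous cells at 24 h against untreated, among them Thbs2 and Tnc on the higher side (0.0142 and 0.00965). Joined by Xist class, or by array number in heterozygous cells, both lines of every genotype ran the same way between 4 h and 24 h for all 10 genes, 8 upward and 2 downward. At 4 h against untreated the wt lines differed in sign for 4 of 10 genes, among them Thbs1 (-0.40 on Xist-high and 0.07 on Xist-low arrays). At 24 h against untreated the lines differed in sign for 1 gene in each mutant genotype. The same count over all probe sets was not made.

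**Figure D2:**
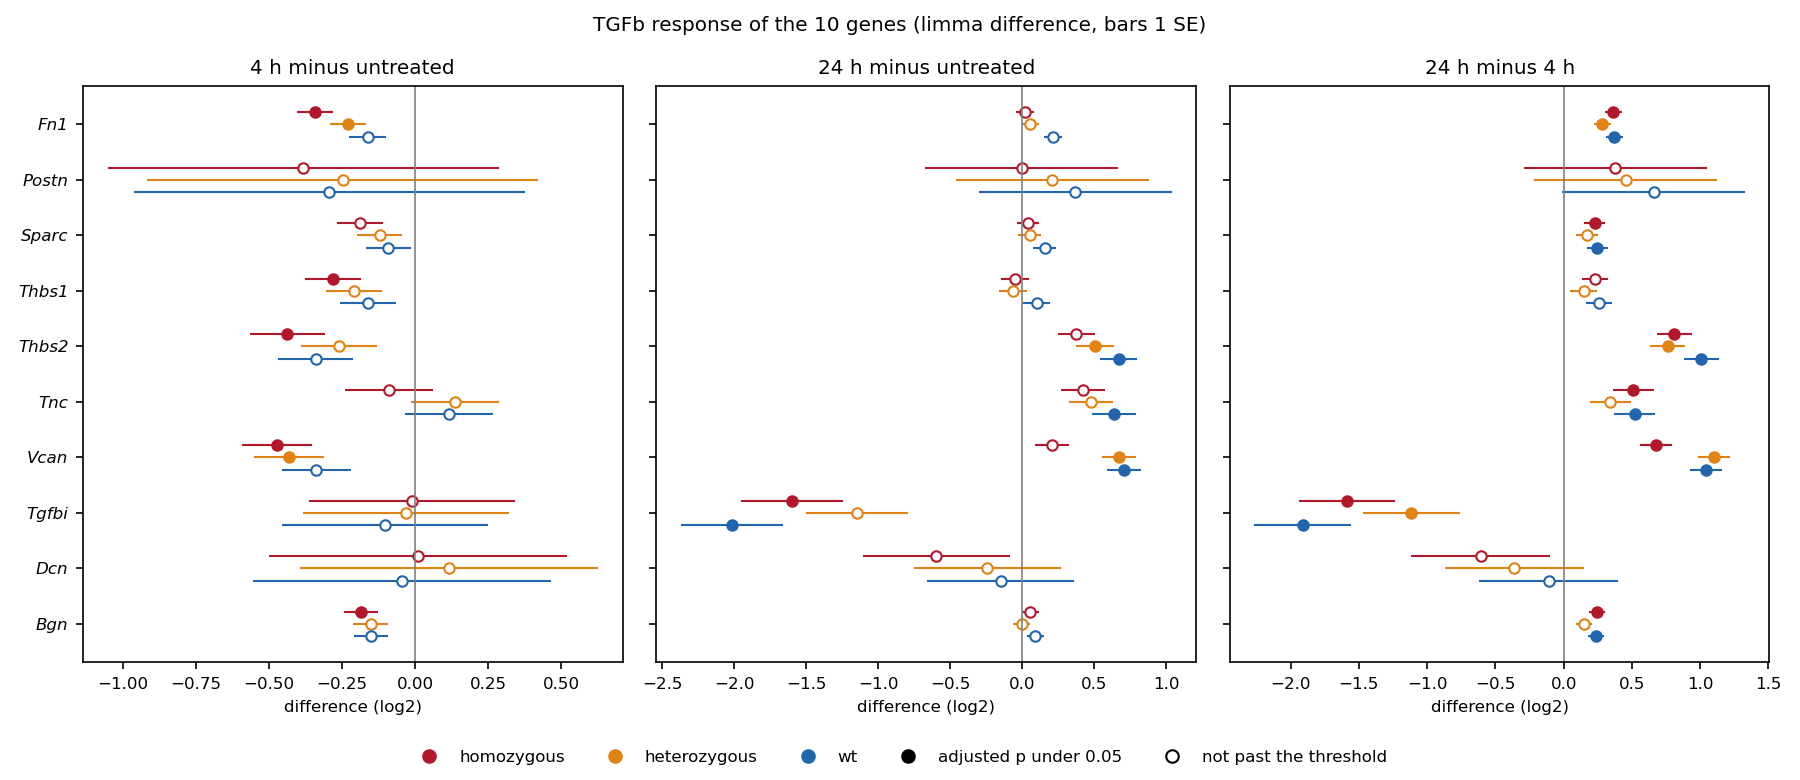
Log2 differences of the 10 genes (rows) at 4 h against untreated, at 24 h against untreated and at 24 h against 4 h, in homozygous, heterozygous and wt cells; bars are 1 limma SE and filled points have an adjusted p under 0.05. Tgfbi at 24 h is the change of largest size, at -1.60, -1.15 and -2.02, and Thbs2 and Vcan differ between 24 h and 4 h by 0.68 to 1.10.

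Promoter sequences are shown for the 4 genes with a call at 24 h against untreated, since they moved in opposite directions at that time. The 250 bases before the annotated start were taken from RefSeq on GRCm38.p6, whose table matched 7 of the 10 genes; they are written 5′ to 3′ on the strand of the gene. Capitals mark matches, on either strand, to CAGAC (the short element bound by SMAD proteins, read GTCTG on the other strand) and to TATAAA (the TATA box, read TTTATA on the other strand); TGANTCA (the AP-1 site) was searched too and had no match in these 4, and no matches overlapped. The Tgfbi window is chr13:56609336-56609585 on the plus strand, that of Thbs2 chr17:14694263-14694512, that of Vcan chr13:89742513-89742762 and that of Tnc, for 1 of its 2 starts, chr4:64046937-64047186, the last 3 on the minus strand.
Tgfbi: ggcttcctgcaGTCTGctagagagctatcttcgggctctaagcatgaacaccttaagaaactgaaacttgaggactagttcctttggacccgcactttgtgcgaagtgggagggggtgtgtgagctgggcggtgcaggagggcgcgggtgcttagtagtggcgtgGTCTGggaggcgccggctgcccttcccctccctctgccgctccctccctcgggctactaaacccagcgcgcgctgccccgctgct
Thbs2: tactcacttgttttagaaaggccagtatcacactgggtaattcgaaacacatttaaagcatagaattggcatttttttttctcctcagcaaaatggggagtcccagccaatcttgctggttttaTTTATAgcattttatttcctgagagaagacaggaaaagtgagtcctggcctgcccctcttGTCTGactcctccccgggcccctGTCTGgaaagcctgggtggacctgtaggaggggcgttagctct
Vcan: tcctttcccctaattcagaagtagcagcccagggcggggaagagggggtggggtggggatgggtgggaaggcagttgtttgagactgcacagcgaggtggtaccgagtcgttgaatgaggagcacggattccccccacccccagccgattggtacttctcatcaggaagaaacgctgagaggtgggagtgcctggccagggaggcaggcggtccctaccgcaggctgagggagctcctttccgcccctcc
Tnc: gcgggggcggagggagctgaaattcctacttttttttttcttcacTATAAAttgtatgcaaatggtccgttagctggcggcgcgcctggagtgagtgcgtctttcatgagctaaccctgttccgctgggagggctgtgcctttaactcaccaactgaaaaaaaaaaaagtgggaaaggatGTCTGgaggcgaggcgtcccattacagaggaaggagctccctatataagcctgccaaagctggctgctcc

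The SMAD letters occur 2 times in the Tgfbi window, 2 times in that of Thbs2 and 1 time in that of Tnc, and not in that of Vcan. They begin 239 and 85 bases before the start of Tgfbi, 66 and 43 bases before that of Thbs2 and 70 bases before that of Tnc. Of 32851 windows of the same length, 42.2% hold these letters, 12.4% hold TATAAA and 6.7% hold TGANTCA, so such matches are common. A match is a description of the letters and not a binding site.

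Tgfbi, the integrin-binding matrix protein named above, had the largest change of the 10 genes on their brightest probe sets. In homozygous cells it stood at log2 11.20 and 11.45 untreated, 11.19 and 11.45 at 4 h and 9.49 and 9.97 at 24 h. In heterozygous cells the levels were 11.45 and 10.55 untreated, 11.39 and 10.54 at 4 h and 10.25 and 9.45 at 24 h. In wt cells they were 11.13 and 11.62 untreated, 11.43 and 11.11 at 4 h and 9.53 and 9.18 at 24 h. Every 24 h array was below every untreated and every 4 h array, while the arrays at 4 h overlapped the untreated ones in all 3 genotypes.

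At 24 h Tgfbi fell by 1.60 ± 0.35 in homozygous cells (limma, adjusted p = 0.0164) and by 2.02 ± 0.35 in wt cells (adjusted p = 0.00387) relative to untreated. In heterozygous cells the change was -1.15 ± 0.35, with an adjusted p of 0.0954, and with the array number as a block within genotype it was -1.15 ± 0.18, with an adjusted p of 0.00503. That block takes up a steady offset: the heterozygous arrays numbered 1 were above those numbered 2 by 0.91 untreated, 0.84 at 4 h and 0.80 at 24 h. At 4 h the change was -0.01, -0.03 and -0.10 in homozygous, heterozygous and wt cells, each with an SE of 0.35. All 4 probe sets gave the same picture at 24 h, with changes of -1.49 to -1.97 in homozygous, -1.04 to -1.32 in heterozygous and -1.56 to -2.02 in wt cells. The homozygous call at 24 h was lost without untreated array 1, untreated array 2 or 24 h array 1 (adjusted p = 0.0756, 0.131 and 0.163), and the wt call with array weights (0.0805).
Relative to 4 h, Tgfbi fell by 1.59, 1.12 and 1.91 at 24 h in homozygous, heterozygous and wt cells (SE 0.35; adjusted p = 0.00513, 0.0322 and 0.00226). The heterozygous call between the times was lost without 4 h array 1 or 24 h array 2 (adjusted p = 0.247 and 0.246) and the homozygous one without 24 h array 1 (0.0519).

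Thrombospondins are large calcium-binding glycoproteins; Thbs1 is known for activating latent TGFb, and Thbs2, which lacks that sequence, for limiting vessel growth and for collagen fibre assembly. Thbs2 stood at log2 12.60 and 12.63 untreated, 12.06 and 12.29 at 4 h and 12.94 and 13.03 at 24 h in homozygous cells. In heterozygous cells it was at 12.48 and 12.28, 12.12 and 12.13, and 12.97 and 12.80 at the same points. In wt cells it was at 12.10 and 11.64, 11.52 and 11.54, and 12.50 and 12.58. The 24 h arrays lay above both other conditions and the 4 h arrays below untreated in each genotype, without overlap.

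From 4 h to 24 h Thbs2 rose by 0.81 ± 0.13, 0.76 ± 0.13 and 1.01 ± 0.13 in homozygous, heterozygous and wt cells (limma, adjusted p = 0.0008, 0.00135 and 0.00034). Relative to untreated it rose at 24 h by 0.50 ± 0.13 in heterozygous (adjusted p = 0.043) and 0.67 ± 0.13 in wt cells (0.00694), and the homozygous difference was 0.37 ± 0.13 (0.12). At 4 h it fell by 0.44 ± 0.13 in homozygous cells (adjusted p = 0.0205); the differences of -0.26 in heterozygous and -0.34 in wt cells had adjusted p of 0.157 and 0.088. A dimmer probe set, 1450663_at, gave a rise at 24 h in all 3 genotypes, of 0.61, 0.89 and 1.01 (SE 0.12; adjusted p = 0.00697, 0.000721 and 0.000209).
The heterozygous call at 24 h was lost without any 1 of its 4 arrays (untreated 1, untreated 2, 24 h 1 and 24 h 2 left out: adjusted p = 0.0833, 0.322, 0.311 and 0.0835), the wt call at 24 h without 24 h array 2 (0.0565) and with array weights (0.0547), and the homozygous call at 4 h without untreated array 1, untreated array 2 or 4 h array 1 (0.077, 0.0953 and 0.167). Without wt untreated array 2, Thbs2 was called lower at 4 h in wt cells (0.0049).

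Thbs2 was the 1 member called between untreated genotypes. It was higher in untreated homozygous than in untreated wt cells by 0.74 ± 0.13 (limma, adjusted p = 0.0255), where 0.564% of all probe sets were called higher. On probe set 1450663_at the same difference was 0.79 ± 0.12 (adjusted p = 0.0172). The remaining probe set, 1447862_x_at, was not called. Its untreated levels were 11.575 and 11.525 in homozygous and 11.406 and 10.599 in wt cells. Untreated heterozygous cells stood 0.51 ± 0.13 above wt, with an adjusted p of 0.15. Leaving out an array leaves 1 in its group. The homozygous call was lost without wt array 2, where the difference fell to 0.51. That call was also lost without homozygous array 1 or homozygous array 2, with differences of 0.75 and 0.73. Without wt array 1 the heterozygous difference was 0.74. The macrophage and blood markers moved with the same contrast, with a median difference of 1.85 over 12 genes and 1 called higher in homozygous against wt cells, and their part in the Thbs2 difference was not tested.

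Vcan encodes versican, which carries chondroitin sulfate chains and holds hyaluronan in loose matrix. In homozygous cells it stood at log2 11.72 and 11.73 untreated, 11.12 and 11.39 at 4 h and 11.88 and 11.99 at 24 h. In heterozygous cells it was at 11.27 and 11.39 untreated, 10.73 and 11.06 at 4 h and 12.05 and 11.95 at 24 h. In wt cells it was at 11.41 and 11.49 untreated, 11.18 and 11.05 at 4 h and 12.23 and 12.08 at 24 h. The 3 conditions did not overlap within any genotype, with 4 h lowest and 24 h highest.

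At 24 h Vcan rose above untreated by 0.67 ± 0.12 in heterozygous cells (limma, adjusted p = 0.00553) and by 0.70 ± 0.12 in wt cells (0.00316), a fold of 1.59 and 1.63. The homozygous difference at 24 h was 0.21 ± 0.12 (adjusted p = 0.415). At 4 h it fell by 0.47 ± 0.12 in homozygous (adjusted p = 0.00921) and 0.43 ± 0.12 in heterozygous cells (0.0185), and the wt difference was -0.34 ± 0.12 (0.0686). Between the times it rose by 0.68, 1.10 and 1.04 in homozygous, heterozygous and wt cells (SE 0.12; adjusted p = 0.0014, 9.32e-05 and 0.000184).
Some of these calls were lost when 1 array was left out, which leaves 1 array in its group and widens the SE. The size of the change moved too. Without 4 h array 1 the change at 4 h was -0.27 in heterozygous and -0.33 in homozygous cells, and without 4 h array 2 it was -0.59 and -0.61. At 24 h the heterozygous call was lost without untreated array 1 or 24 h array 1 (adjusted p = 0.0641 and 0.0681), at 4 h without untreated array 2 or 4 h array 1 (0.127 and 0.173), and the homozygous one at 4 h without untreated array 2 or 4 h array 1 (0.0533 and 0.106).

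The other probe sets of Vcan gave changes of another size, as the plot by probe set shows. On 1421694_a_at the difference at 24 h was 0.06 ± 0.17 in homozygous, 0.39 ± 0.17 in heterozygous and 1.32 ± 0.17 in wt cells, and only the last was called (adjusted p = 0.000405). On the dim probe set 1427257_at wt cells reached log2 7.89 and 9.72 at 24 h against 6.54 and 6.62 untreated, whereas homozygous cells had 7.07 and 6.81 at 24 h against 7.12 and 7.30 untreated. The mutant minus wt difference in the 24 h response was -1.26 ± 0.23 in homozygous and -0.93 ± 0.23 in heterozygous cells on 1421694_a_at, and -0.50 ± 0.17 and -0.04 ± 0.17 on the brightest probe set. None of these interactions passed the threshold after adjustment (adjusted p = 0.673, 0.999, 0.733 and 0.999). Which transcripts of the gene each probe set matches was not analysed here.

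**Figure D3:**
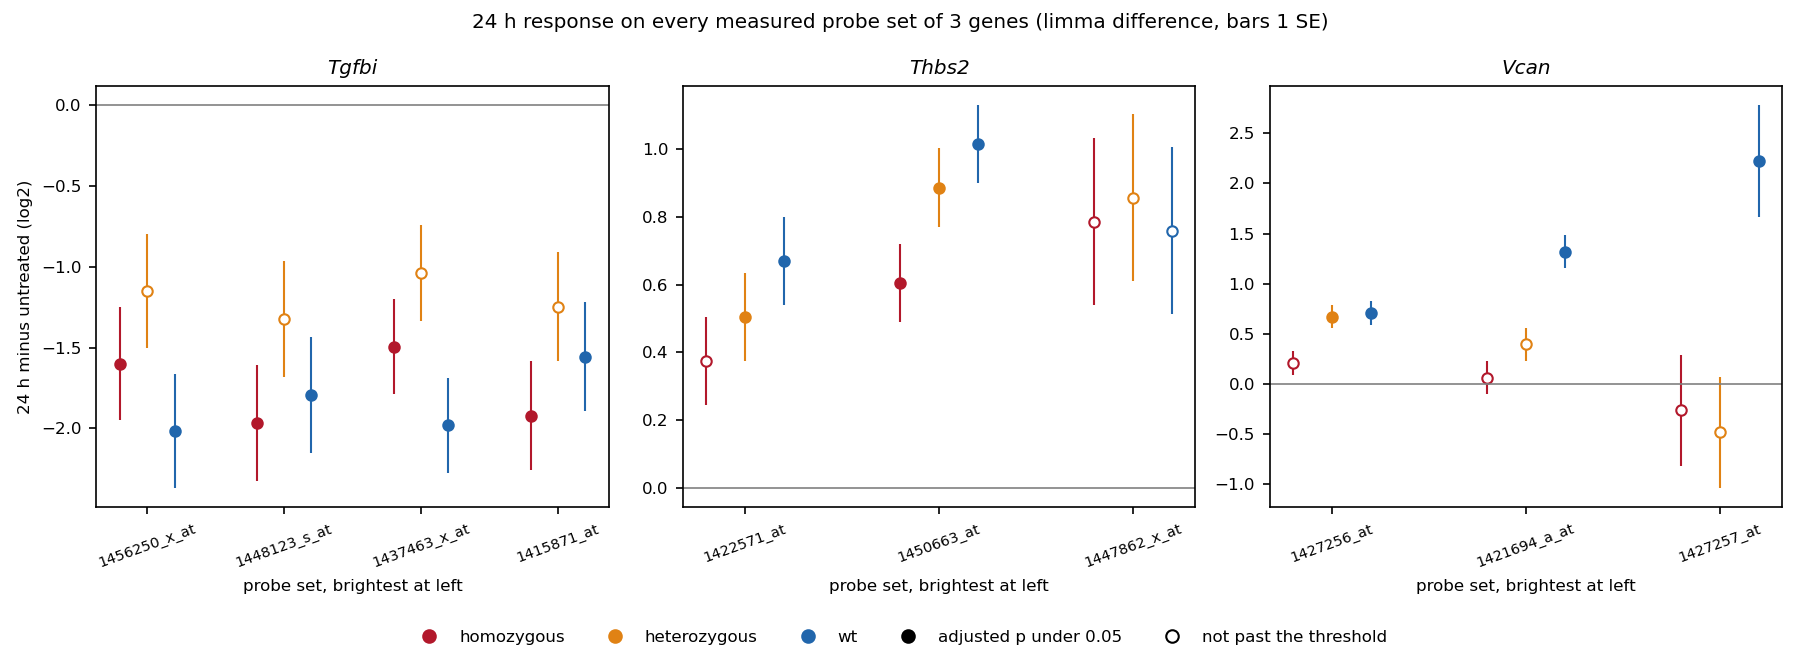
Log2 difference between 24 h of TGFb and untreated cells on each measured probe set of Tgfbi, Thbs2 and Vcan (horizontal axis, brightest at left) in homozygous, heterozygous and wt cells, with 1 limma SE; filled points have an adjusted p under 0.05. All 4 Tgfbi probe sets lie below 0 and all 3 of Thbs2 above it, while those of Vcan spread between -0.49 and 2.23.

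Tnc encodes tenascin C, a hexameric glycoprotein of embryonic and healing tissue that loosens adhesion to fibronectin. Its levels were log2 14.29 and 14.34 untreated, 14.13 and 14.32 at 4 h and 14.69 and 14.78 at 24 h in homozygous cells. They were 14.30 and 14.16, 14.32 and 14.41, and 14.82 and 14.59 in heterozygous cells and 14.36 and 13.79, 14.22 and 14.17, and 14.57 and 14.85 in wt cells. The 6 arrays at 24 h all stood above the 6 untreated ones, whose highest was 14.36. At 24 h against untreated the difference was 0.42, 0.48 and 0.64 in homozygous, heterozygous and wt cells (SE 0.15), and the rise in wt cells was called (limma, adjusted p = 0.0204; 0.135 and 0.105 in the other two). Between the times Tnc rose by 0.51 in homozygous and 0.52 in wt cells (adjusted p = 0.0214 and 0.0202), with 0.34 in heterozygous cells (0.106).
The wt rise at 24 h was lost without untreated array 2 or 24 h array 2 (adjusted p = 0.133 and 0.161) and the wt rise between the times without 4 h array 2 or 24 h array 2 (0.0959 and 0.154); the homozygous rise between the times was lost without 4 h array 1, 24 h array 1 or 24 h array 2 (0.145, 0.0656 and 0.112). The second probe set, 1456344_at, gave no call in any comparison against untreated cells.

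Fn1 encodes fibronectin, the adhesive glycoprotein of the fibroblast surface and matrix. At 4 h its log2 level was 14.84 and 14.99 in homozygous, 14.95 and 14.95 in heterozygous and 14.84 and 14.83 in wt cells. Untreated cells had 15.24 and 15.27, 15.21 and 15.15, and 15.08 and 14.91 in the same order of genotypes. At 24 h the levels were 15.28 and 15.27, 15.26 and 15.21, and 15.16 and 15.25. The 4 h arrays were below untreated ones without overlap in each genotype, and the 24 h arrays of the mutants lay close to their untreated ones.

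Relative to untreated, Fn1 fell at 4 h by 0.34 ± 0.06 in homozygous (limma, adjusted p = 0.00151) and 0.23 ± 0.06 in heterozygous cells (0.0175), and the wt difference was -0.16 ± 0.06 (0.0924). It rose between 4 h and 24 h by 0.36, 0.28 and 0.37 in homozygous, heterozygous and wt cells (SE 0.06; adjusted p = 0.00126, 0.00572 and 0.00141). At 24 h against untreated the differences were 0.02, 0.05 and 0.21, with adjusted p of 0.942, 0.837 and 0.0554. The fall in homozygous cells was also called on the dimmer probe set 1437218_at, at -0.58 ± 0.14 (adjusted p = 0.00886). The heterozygous call at 4 h was lost without untreated array 1, 4 h array 1 or 4 h array 2 (adjusted p = 0.116, 0.0683 and 0.0686) and without the intensity trend (0.0759). Without wt untreated array 2 the wt difference at 4 h was called (0.0161), and without wt untreated array 1 that at 24 h (0.0108).

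Thbs1 stood at log2 14.64 and 14.81 at 4 h in homozygous cells, against 14.98 and 15.03 untreated. It fell at 4 h by 0.28 ± 0.10 in those cells (limma, adjusted p = 0.0389), while the heterozygous and wt differences of -0.21 and -0.16 had adjusted p of 0.127 and 0.262. On the dimmer probe set 1450377_at it fell by 0.73 ± 0.24 in homozygous cells (adjusted p = 0.0316). Its levels there were 14.00 and 14.25 at 4 h against 14.76 and 14.94 untreated. Between 24 h and 4 h that probe set rose by 0.67 ± 0.24 in wt cells (adjusted p = 0.0466); the brightest one gave 0.26 ± 0.10 (0.0553). At 24 h against untreated Thbs1 differed by -0.05, -0.06 and 0.10 in homozygous, heterozygous and wt cells, none called. The homozygous call at 4 h was lost without untreated array 1, untreated array 2 or 4 h array 1 (adjusted p = 0.1, 0.165 and 0.26) and without the filter on dim probe sets (0.0956).

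Sparc encodes a collagen-binding glycoprotein that loosens cell adhesion. In homozygous cells it stood at log2 15.27 and 15.30 untreated, 15.02 and 15.17 at 4 h and 15.28 and 15.37 at 24 h. In wt cells it stood at 15.18 and 14.99 untreated, 14.99 and 15.00 at 4 h and 15.13 and 15.36 at 24 h. It passed no test against untreated cells. Between 24 h and 4 h it rose by 0.23 ± 0.08 in homozygous (limma, adjusted p = 0.0392) and 0.25 ± 0.08 in wt cells (0.0296); the heterozygous difference was 0.17 ± 0.08 (0.116). With the array number as a block within genotype the homozygous rise was no longer called (adjusted p = 0.0532). It was lost too without 4 h array 1, 24 h array 1 or 24 h array 2 (0.263, 0.0691 and 0.212), and the wt rise without 4 h array 1, 4 h array 2 or 24 h array 2 (0.0682, 0.094 and 0.274). The second measured probe set, 1416589_at, gave a difference of 0.11 ± 0.07 and 0.07 ± 0.07 in homozygous and wt cells, neither called.

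Bgn, the gene of biglycan, stood at log2 15.14 and 15.19 untreated, 14.89 and 15.07 at 4 h and 15.22 and 15.22 at 24 h in homozygous cells. In wt cells it stood at 15.10 and 15.03 untreated, 14.91 and 14.91 at 4 h and 15.12 and 15.18 at 24 h. The 4 h arrays were below the untreated ones and the 24 h arrays above the 4 h ones in both genotypes. It fell at 4 h by 0.19 ± 0.06 in homozygous cells (limma, adjusted p = 0.0271), with -0.15 ± 0.06 in heterozygous and in wt cells (0.0726 and 0.0951). Between the times it rose by 0.24 ± 0.06 in homozygous and in wt cells (adjusted p = 0.00834 and 0.00933), with 0.15 ± 0.06 in heterozygous cells (0.0745). On probe set 1416405_at the fall at 4 h was called in homozygous and heterozygous cells, at -0.25 and -0.17 (SE 0.05; adjusted p = 0.00341 and 0.0316), and the rise between the times in all 3 genotypes. The homozygous fall on the brightest probe set was lost without untreated array 1, untreated array 2 or 4 h array 1 (adjusted p = 0.0667, 0.153 and 0.289), the homozygous rise without 4 h array 1 (0.103) and the wt rise without 24 h array 2 (0.0704).

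The highest log2 value on any array was 16.47, and Fn1, Sparc, Thbs1 and Bgn lay between 14.60 and 15.37 on their brightest probe sets. Whether brightness limits the size of their changes was not tested. In homozygous cells at 4 h the dimmer probe sets of Fn1 and Thbs1 gave larger falls, as given above, and so did 1416405_at of Bgn. The dimmer 1416589_at of Sparc differed by -0.07 against -0.19 on the brightest, and 1437889_x_at of Bgn by -0.04 against -0.19, neither of these dimmer probe sets being called.

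Dcn, the gene of decorin, and Postn, the gene of periostin, a collagen-binding protein of the same fold as TGFBI, differed more between the 2 arrays of a wt group than between wt conditions, as did Dcn in heterozygous cells. In wt cells Postn was at log2 14.16, 13.71 and 14.28 on the Xist-high arrays untreated, at 4 h and at 24 h, and at 11.99, 11.85 and 12.60 on the Xist-low arrays. The mean difference between the wt classes was 1.90, against -0.07 between the classes in homozygous cells. Homozygous cells had 13.26 and 13.30 untreated, 12.87 and 12.93 at 4 h and 13.23 and 13.32 at 24 h, and heterozygous cells 13.16 and 13.03, 12.94 and 12.75, and 13.47 and 13.13. The mutant arrays thus lay between the wt classes. On every line Postn was lowest at 4 h. The fitted change at 4 h was -0.38, -0.25 and -0.29 in homozygous, heterozygous and wt cells and that from 4 h to 24 h 0.38, 0.46 and 0.66, each with a limma SE of 0.67 and none called. That SE is shared by all groups and holds the distance between the wt classes. With only the homozygous groups compared, whose arrays lay 0.05 to 0.09 apart, Postn was lower at 4 h than untreated by 0.38 (SE 0.045, adjusted p = 0.00275) and rose between the times by 0.38 (SE 0.053, adjusted p = 0.00508).

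Dcn stood at log2 10.12, 10.27 and 10.06 on the Xist-high wt arrays untreated, at 4 h and at 24 h, and at 9.28, 9.05 and 9.04 on the Xist-low ones. In heterozygous cells, whose arrays are all Xist-high, it was at 11.26, 11.33 and 11.08 on the arrays numbered 1 and 10.27, 10.44 and 9.96 on those numbered 2. Homozygous cells had 10.73 and 10.93 untreated, 10.75 and 10.93 at 4 h and 10.12 and 10.34 at 24 h. The 24 h arrays of homozygous cells were below their other arrays, and the fitted change from 4 h to 24 h was -0.61 ± 0.51 (limma, adjusted p = 0.389). With only the groups compared, Dcn in homozygous cells fell between the times by 0.61 ± 0.11 (adjusted p = 0.00956) and at 24 h against untreated by 0.60 ± 0.11 (0.0342). Between untreated genotypes Dcn differed by 1.13 ± 0.51 in homozygous and 1.07 ± 0.51 in heterozygous against wt cells, with adjusted p of 0.288 and 0.572.

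The macrophage and blood markers, like Dcn, stood higher on the Xist-high than on the Xist-low wt arrays and higher on heterozygous arrays numbered 1 than on those numbered 2. Their summed log2 level on wt arrays was 11.90, 12.63 and 11.41 in the Xist-high class and 10.62, 10.69 and 10.03 in the Xist-low class, and on heterozygous arrays 13.98, 14.19 and 13.81 for number 1 and 13.61, 13.90 and 13.37 for number 2. Across genotypes Postn ran otherwise: it was highest on the Xist-high wt arrays, whose marker sums lay below those of every mutant array. The part of these cells in the Dcn and Postn levels was not tested. Of the 12 markers, 0 were dim on every array.

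**Figure D4:**
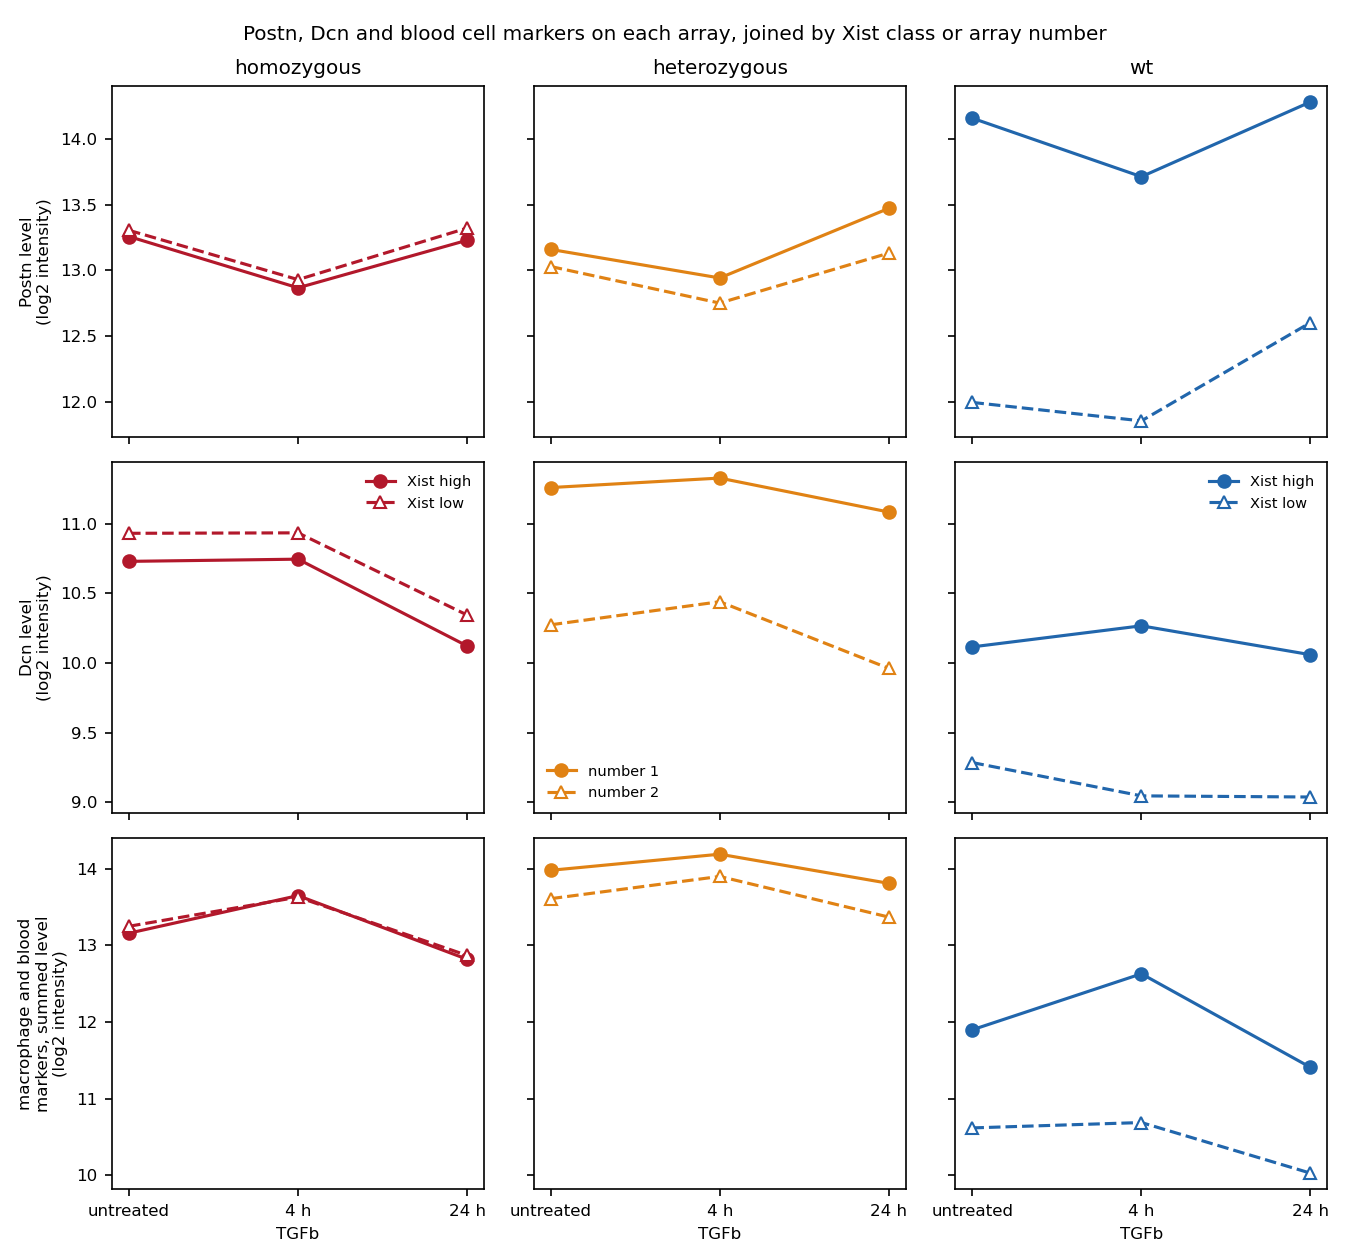
Log2 level of Postn and Dcn and summed log2 level of 12 macrophage and blood markers (rows) on each array of homozygous, heterozygous and wt cells (columns), untreated and after 4 h and 24 h of TGFb. Lines join arrays of 1 Xist class, or of 1 array number in heterozygous cells, where all arrays are Xist-high; the wt lines of Postn lie 1.90 apart on average.

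In untreated cells no member was called between heterozygous and wt cells (0.586% of all probe sets called; 2 of 10 genes and 9.03% of all probe sets had an unadjusted p under 0.05) or between homozygous and heterozygous cells (0% of all probe sets called; 1 of 10 genes and 3.11% of all probe sets had an unadjusted p under 0.05). All but 1 of the 10 genes had a higher mean in untreated homozygous than wt cells, with a median difference of 0.22 against -0.01 over all probe sets. On the Xist-high arrays alone, Postn (13.26 against 14.16), Thbs1 (14.98 against 14.99) and Tnc (14.29 against 14.36) stood lower in homozygous cells. On the Xist-low arrays only Tgfbi did (11.45 against 11.62). Fn1 and Tnc were called too in homozygous against wt cells when wt untreated array 1 was left out, with differences of 0.35 and 0.53. Fn1 and Thbs2 were then called in heterozygous against wt cells, with differences of 0.27 and 0.74. That fit leaves 1 wt untreated array. The difference between the mutant and wt responses was called for 0 of 10 genes and 0% of all probe sets in each of the 4 interactions, in limma. At an unadjusted p under 0.05 the 1 gene was Vcan, at 24 h in homozygous against wt cells, where 6.15% of all probe sets were under that value. A p that misses the threshold does not show that the genotypes respond alike: the 95% interval of that Vcan difference ran from -0.86 to -0.14.

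Over the 9 groups, the mean level of Tgfbi spanned 2.02 on the log2 scale, that of Thbs2 1.45, of Dcn 1.34 and of Vcan 1.26, and those of the other 6 genes between 0.30 and 0.66. Ordered from low to high, Thbs2 had 5 of 8 neighbouring group pairs without overlap of their arrays and Vcan 4 of 8, against 1 of 8 for Tgfbi and Dcn. For the 4 genes that spanned at least 1, the genes of closest pattern among 2524 others of that span were sought by Pearson correlation of the 9 group means, as a description without a test. Closest to Thbs2 were Gadd45a (r = 0.99), Cpne8 (0.99) and Mmp2 (0.98), and to Vcan Nrep (0.97), Hoxa3 (0.96) and Pdxp (0.96). Closest to Tgfbi were Pdlim2 (0.99), Mgst1 (0.98) and Serping1 (0.98). Closest to Dcn were Clec4n (0.99), Pik3ap1 (0.99) and Ms4a6b (0.97), and over the 18 arrays these 3 had r of 0.92, 0.87 and 0.91.

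Other genes of the matrix network were counted from lists set up with results of these data known. Beside these counts, 17.4% of all probe sets rose and 17.6% fell at 4 h in homozygous, 13.8% and 12.7% in heterozygous and 7.64% and 9.48% in wt cells. At 24 h the shares were 2.25% and 4.18% in homozygous, 2.24% and 2.84% in heterozygous and 4.11% and 5.03% in wt cells. Of 28 other matrix glycoproteins 19 were measured, and at 24 h 1 rose and 6 fell in homozygous, 1 rose and 4 fell in heterozygous and 3 rose and 5 fell in wt cells. Srpx2, a sushi-repeat protein, rose by 2.06, 2.16 and 2.18 and Efemp1, a fibulin, fell by 2.10, 1.94 and 2.10 in homozygous, heterozygous and wt cells (limma, adjusted p = 0.00179, 0.00156 and 0.00111 for Srpx2 and 0.000846, 0.00163 and 0.000714 for Efemp1). The basement membrane gene Nid2 fell by 1.12, 1.10 and 1.03. Emilin2 fell by 1.27, 1.06 and 2.12, and in untreated cells it was higher by 1.10 in homozygous and 1.77 in heterozygous than in wt cells (adjusted p = 0.0279 and 0.00203). At 4 h 1 rose and 4 fell in homozygous cells, 0 rose and 2 fell in heterozygous cells, and none was called in wt cells.

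Of 13 other small leucine-rich proteoglycans 4 were measured. Ogn, which encodes osteoglycin, was the 1 member called at 24 h, falling by 0.64, 0.47 and 0.72 in homozygous, heterozygous and wt cells (limma, adjusted p = 0.00176, 0.0144 and 0.000702). The median of the 4 at 24 h was -0.81, -0.54 and -0.62.

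Hyaluronan, the sugar chain that versican binds, is made by Has2. Of 14 genes of hyaluronan and the versican family 5 were measured, and Has2 rose at 24 h by 1.18, 0.91 and 1.45 in homozygous, heterozygous and wt cells (limma SE 0.16; adjusted p = 0.000799, 0.00492 and 0.000164). At 4 h it rose in all 3 genotypes, by 1.53 in homozygous and 1.60 in wt cells. Tnfaip6, whose product links hyaluronan to carrier proteins, rose at 4 h by 2.66, 2.37 and 1.62. Hmmr, a hyaluronan receptor gene also active in mitosis, fell at 24 h by 1.03 in homozygous and 0.78 in heterozygous cells.

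The chains of versican, decorin and biglycan are built by the chondroitin and dermatan sulfate enzymes, of which 21 of 25 were measured. At 24 h 4 rose and 2 fell in homozygous cells and 4 rose and 1 fell in heterozygous and in wt cells. Chst11, a sulfotransferase that acts on chondroitin, rose at 24 h by 1.47, 1.51 and 1.47 and at 4 h by 1.52, 1.63 and 1.55 in homozygous, heterozygous and wt cells. Ust and Chsy3, enzymes that sulfate and extend the chains, rose at 24 h by 1.16, 1.17 and 1.42 and by 0.99, 0.84 and 1.13. Chst7 fell at 24 h by 1.06, 1.29 and 1.26, and at 4 h Csgalnact1, an enzyme that starts the chains, fell by 1.08, 1.02 and 0.79.

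All 20 genes listed as receptors were measured, and at 4 h 3 rose and 6 fell in homozygous, 3 rose and 4 fell in heterozygous and 2 rose and 3 fell in wt cells. Itga5, whose product pairs with another chain as the main fibronectin receptor, rose at 4 h by 1.53, 1.88 and 1.60, and Itgb3 by 1.81, 2.05 and 1.76. At 24 h 1 rose and 4 fell in homozygous, 2 rose and 3 fell in heterozygous and 2 rose and 4 fell in wt cells. Itga8 fell at 24 h by 2.84, 2.61 and 2.67, and Cd36, a thrombospondin receptor gene, by 1.72, 1.72 and 1.80 in homozygous, heterozygous and wt cells. Cd36 is also expressed by macrophages and was higher by 1.94 in untreated heterozygous than wt cells (adjusted p = 0.0448).

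Of 16 listed proteases that cut these proteins 12 were measured. At 24 h 2 rose and 2 fell in homozygous, 3 rose and 2 fell in heterozygous and 4 rose and 2 fell in wt cells. Adamts5, a versican-cutting protease, fell by 2.13, 2.08 and 1.95 at 4 h and by 2.47, 2.53 and 2.22 at 24 h in homozygous, heterozygous and wt cells. Adamts1 fell at 4 h in all 3 genotypes, by 1.46 in homozygous and 1.54 in wt cells. Mmp9, the gene of a gelatinase, rose at 24 h by 2.12, 2.00 and 2.86 in homozygous, heterozygous and wt cells. Adamts4 rose at 24 h in all 3 genotypes, by 1.56 in homozygous and 1.35 in wt cells.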

How the data were processed

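Each of 18 Affymetrix arrays measured the RNA of 1 sample of embryonic fibroblasts. The deposited values are intensities on a linear scale, made by the authors with GCRMA per the submitters' processing notes, which give no version; no label or header gives a scan date, and none was fitted as a batch. GCRMA evens out arrays and cannot show a shift common to all genes. Values were converted to log2. Probe sets with log2 of at least 5 on at least 2 of 18 arrays (18958 of 45101) were fitted in R 4.3.3 with limma 3.58.1, with a mean for each of 9 groups (9 residual degrees of freedom, median prior 3.51) and an intensity trend; p-values are two-sided, adjusted by Benjamini-Hochberg over 18958 probe sets, and called under 0.05. Each gene is read on its brightest probe set; errors are limma SE from the pooled spread. Of all probe sets, 34958 carry 1 symbol, 932 several and 9211 none.

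Array numbers were taken to pair arrays within heterozygous and homozygous cells, where differences between the arrays correlate at 0.234 to 0.606 over all pairs of conditions; in wt cells the correlations were -0.391, -0.576 and 0.511. Named genes are the 10 members, up to 4 called genes of each list with the largest change per comparison, and the 3 genes closest in pattern. Members and lists were chosen with earlier results of these data known. Scripts were tested on simulated data. Alternatives were the filter, quantile normalization, the pseudocount, 1 probe set a gene, probe set quality, array weights, the trend, the arrays in the fit, replicate blocks and leaving out each array.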

Additional observations from a re-analysis of the deposited data

How the results depend on the processing

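No called change of a member turned direction under any alternative. Of 33 called member results, 7 kept their call under every alternative tried: Fn1, Thbs2 and Vcan between 24 h and 4 h in both mutant genotypes, and Fn1 at 4 h in homozygous cells. Leaving out 1 array ended 20 calls. Fitting only the groups compared ended 16, of which 12 involve wt groups, and added 10, of which 0 involve them. Both leave fewer arrays for the spread, so a lost call need not mark a deciding array or a wider spread. Precision is set by 2 arrays a group and by a larger spread in wt than in mutant cells (root mean square SD 0.21 to 0.219 in homozygous, 0.195 to 0.276 in heterozygous and 0.335 to 0.411 in wt groups); dim probe sets carry no usable change.

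Counts of genes called, out of 10, that moved by over 1.5 times were as follows. With array weights they were 3 in homozygous, 4 in heterozygous and 1 in wt cells at 24 h, 4 in wt cells between 24 h and 4 h and 0 between untreated homozygous and wt cells. With only the groups compared they were 4, 1 and 0 at 24 h in homozygous, heterozygous and wt cells, 1 at 4 h in heterozygous cells, 0 in wt cells between the times and 0 between untreated homozygous and wt cells. Without the filter they were 2 at 4 h in homozygous and 1 at 24 h in heterozygous cells, and without the trend 3 and 1 at 4 h in homozygous and heterozygous cells and 1 at 24 h in heterozygous cells. Quantile normalization gave 1 at 4 h in wt cells and 1 at 24 h in heterozygous cells.

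The replicate block over all groups gave 1 at 24 h in heterozygous cells. The block within genotype changed the calls of Tgfbi at 24 h in heterozygous cells and of Sparc between 24 h and 4 h in homozygous cells, given in the report, and no other call of a member. It used the array numbers in wt cells too, where they do not follow 1 Xist class. The spread it left there enters the SE of all genotypes. Crossing the array numbers of the wt untreated pair, chosen after seeing the data, added 24 calls, 5 of Postn and 5 of Dcn among them, and lost 0. Counts were 2 at 4 h in wt cells, 4 at 24 h in homozygous and in heterozygous cells and 8 between the times in heterozygous cells. They were 3 between untreated cells of either mutant and wt. That block takes the distance between the arrays of a genotype out of the spread, so its calls between genotypes are not tested against that distance.

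Leaving out each array in turn gave 1 to 5 genes at 4 h in homozygous, 0 to 1 in heterozygous and 0 to 2 in wt cells. At 24 h it gave 0 to 1, 0 to 1 and 2 to 5, and between the times 4 to 7, 3 to 4 and 4 to 8. Between untreated cells it gave 0 to 3 for homozygous against wt, 0 to 2 for heterozygous against wt and 0 for homozygous against heterozygous, and 0 in all 4 interactions.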
